A study of Mus musculus with 9 samples.

Results

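The liver RNA of mice given an agonist CD40 antibody was examined for the receptors that bind the constant (Fc) part of IgG. The genes were chosen by name: Fcgr1, Fcgr2b, Fcgr3, and Fcgr4, which encode the Fcγ receptors of the mouse, Fcer1g, which encodes the signaling chain that the activating receptors share, and Fcgrt, which encodes the heavy chain of the neonatal Fc receptor (FcRn). All 6 had a row among the 24341 genes of the deposited table, and all 6 were among the 13807 genes with a mean of at least 0.1 FPKM that were tested. FPKM is a count of sequenced fragments scaled to the length of the transcript and to the size of the library.

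The samples were livers of 9 wild-type (WT) C57BL/6 mice, taken 48 hours after treatment. The anti-CD40 group held 3 mice (mice 2, 5, and 9, with the treatment label CD40) given the agonist antibody clone FGK45, and the control group held 6 mice (mice 3, 4, 7, 8, 11, and 12, with the label PBS). The study's mice were sex matched and 8 to 12 weeks old unless stated otherwise, and mice given anti-CD40 whose blood B cells did not decrease were left out by its authors. The labels name no control antibody, so a response to CD40 activation and a response to receiving an antibody, itself a ligand of Fc receptors, cannot be told apart.

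Fcγ receptors link antibody to the cells that carry out its effects. FcγRI (Fcgr1), FcγRIII (Fcgr3), and FcγRIV (Fcgr4) activate macrophages, monocytes, and neutrophils, and they do so through the γ chain (Fcer1g), whose ITAM motif is phosphorylated by Src family kinases and then recruits Syk. FcγRIIb (Fcgr2b) carries an ITIM motif instead, recruits the phosphatase SHIP-1, and dampens the same signals in B cells and myeloid cells. In the liver it is known chiefly from sinusoidal endothelial cells, which clear immune complexes with it. FcRn pairs with β2-microglobulin, binds IgG and albumin in acidic endosomes, and returns them to the blood, and hepatocytes, endothelial cells, and macrophages all carry it.

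Fcgr2b, Fcgr4, Fcgr3, and Fcer1g lie together on chromosome 1, whereas Fcgr1 and Fcgrt lie on chromosomes 3 and 7. In the table's mm10 coordinates Fcgr2b spans chr1:170960559-170976071, Fcgr4 chr1:171018926-171029761, Fcgr3 chr1:171051169-171059403, and Fcer1g chr1:171229572-171234349. Fcgr1 spans chr3:96282909-96293969 and Fcgrt chr7:45092993-45103822. Fcgr4 is on the plus strand and the other 5 are on the minus strand. In the GENCODE annotation of this build the antisense gene Gm45669 overlaps the 3′ end of Fcgrt and the antisense gene Gm38204 overlaps the 5′ part of Fcgr2b. Whether reads were counted by strand is not stated, so reads of these pairs cannot be told apart. Among the last 500 bases of the annotated transcripts, 1.36% of the 50-base words of Fcgr2b also occurred in Fcgr3, and none was shared by the other 5.

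The 250 bases before the start sites of Fcgr1, Fcgr4, and Fcer1g are shown because Fcgr1 and Fcgr4 each encode a partner of the Fcer1g chain and yet the 3 genes differed in how they moved. The sequences are from RefSeq (GRCm38.p6), which had a start site for all 6 genes, and are written 5′ to 3′ on the strand of the gene. Capitals mark matches to 3 motifs searched on both strands: the STAT site TTCNNNGAA, the IRF element, in which GAAA recurs after a gap of 2 bases, and the PU.1 core GAGGAA, which reads TTCCTC on the other strand.
Fcgr1, chr3:96293970-96294219, minus strand: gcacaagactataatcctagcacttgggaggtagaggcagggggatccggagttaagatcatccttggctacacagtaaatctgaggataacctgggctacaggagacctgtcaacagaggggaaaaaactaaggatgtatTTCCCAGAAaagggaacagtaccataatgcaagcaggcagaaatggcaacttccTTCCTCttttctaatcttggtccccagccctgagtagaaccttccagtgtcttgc
Fcgr4, chr1:171018676-171018925, plus strand: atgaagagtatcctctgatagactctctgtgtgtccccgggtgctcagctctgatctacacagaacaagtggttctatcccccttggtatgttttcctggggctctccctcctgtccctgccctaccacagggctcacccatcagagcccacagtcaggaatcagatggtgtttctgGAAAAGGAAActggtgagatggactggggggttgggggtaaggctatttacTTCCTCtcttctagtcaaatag
Fcer1g, chr1:171234350-171234599, minus strand: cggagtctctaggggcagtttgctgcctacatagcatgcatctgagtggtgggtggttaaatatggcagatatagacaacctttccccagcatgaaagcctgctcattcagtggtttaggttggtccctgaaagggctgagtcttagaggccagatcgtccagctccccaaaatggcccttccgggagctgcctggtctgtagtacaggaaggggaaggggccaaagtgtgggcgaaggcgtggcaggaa

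Fcgr1 held the STAT match TTCCCAGAA at positions -109 to -101 from its start site and a PU.1 core at -55 to -50. Fcgr4 held the IRF match GAAAAGGAAA at -73 to -64 and a PU.1 core at -22 to -17, and Fcgr3 held a PU.1 core only. None of the 3 motifs was in these windows of Fcer1g, Fcgr2b, or Fcgrt. Among 32851 promoters of the same length, 7.02% held the STAT motif, 2.98% the IRF motif, and 23.3% the PU.1 core. These matches describe letters and not bound sites.

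QuantSeq 3′ libraries cover only the 3′ end of a transcript, so FPKM levels were compared between mice and not between genes. Read totals are not given with the values. The steps between low values gave a depth of each mouse, relative to the others, of 0.870 to 1.13. Hepatocyte markers were present in every liver, with a summed FPKM for 10 genes of 4964 to 6423 after anti-CD40 and 14222 to 27499 in the control livers. The tissue is bulk liver, so a change in the number of cells of a type and a change in RNA per cell cannot be told apart.

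Anti-CD40 treatment was followed by changes in opposite directions among these genes. Fcer1g rose the most, Fcgr2b rose less, Fcgr4 and Fcgrt fell, and Fcgr1 and Fcgr3 did not pass the test. The count was 2 higher and 2 lower of 6 by limma with Benjamini-Hochberg adjustment over all genes tested, at an adjusted p under 0.05. Over all 13807 genes, 23.5% were higher, 21.7% were lower, and 45.1% were called in either direction, so the share called among the 6 was not far from that of the table. The count was 1 higher and 1 lower without anti-CD40 mouse 2 or 9, and 3 higher and 2 lower without control mouse 8. With no filter on low values it was 1 higher and 1 lower, and with quantile normalization 3 higher and 1 lower. With median of ratios scaling it stayed at 2 higher and 2 lower. With the acute-phase genes Saa1, Saa2, and Saa3 left out, 4 were higher and neither Fcgr4 nor Fcgrt passed, though both stayed negative. The calls of lower therefore did not hold on that scale. The median log2 fold change of the 6 was 0.45, beside 0.0056 over all genes tested. Fold changes here are on the log2(FPKM + 0.1) scale.

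**Figure D1:**
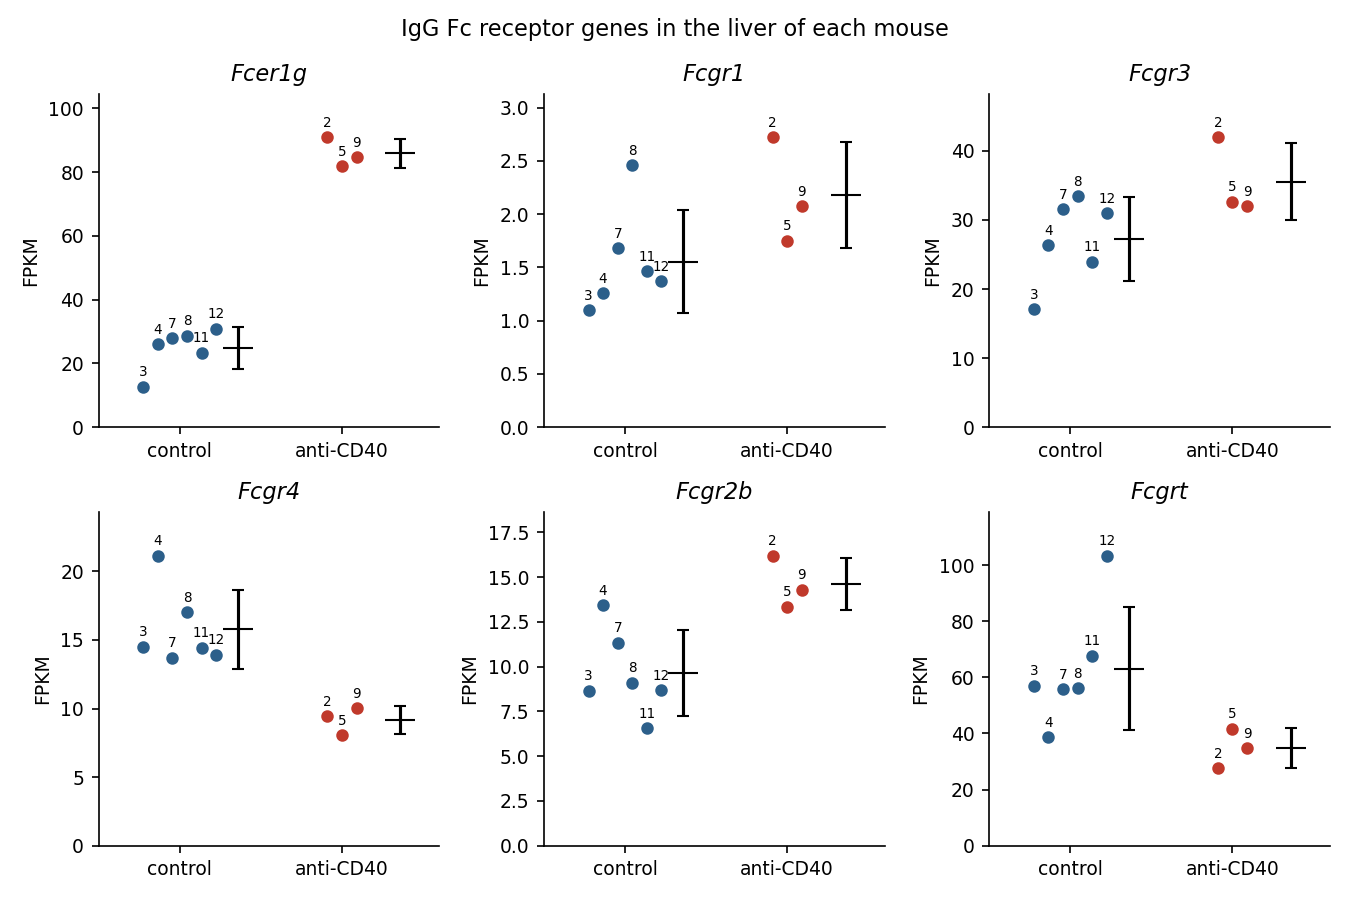
FPKM of each IgG Fc receptor gene (vertical axis, from 0, with its own scale in each panel) in the 6 control mice (blue) and the 3 anti-CD40 mice (red), with the mouse number above each point and the group mean ± SD beside the points. Fcer1g at 81.9 to 91.0 FPKM in the anti-CD40 mice sits above every control mouse and Fcgr4 at 8.04 to 10.0 FPKM sits below every control mouse, whereas the groups overlap for the other 4 genes.

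The signaling chain Fcer1g separated the groups. Its values were 91.0, 81.9, and 84.7 FPKM in anti-CD40 mice 2, 5, and 9. The control mice ranged from 12.7 to 30.9 FPKM with a median of 26.9. Each anti-CD40 liver thus held more Fcer1g RNA than any control liver, and the treated mice lay close together. The mean was 85.8 ± 4.68 FPKM (SD, n = 3) against 24.9 ± 6.52 (SD, n = 6), a log2 fold change of 1.83 (SE 0.25, 95% interval 1.29 to 2.38, limma adjusted p = 1.8e-04). The exact permutation test over the 84 splits of 9 mice into 3 and 6 gave p = 0.0238, the smallest it can give. Across all genes tested, 42.4% did not overlap between the groups. Control mouse 3 had the lowest value, and without it the log2 fold change was 1.65. Fcer1g was called in all 18 alternatives tried.

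Fcgr1 encodes FcγRI, the high-affinity receptor for IgG. It was low, at 2.72, 1.75, and 2.07 FPKM in anti-CD40 mice 2, 5, and 9. In the control mice it ranged from 1.10 to 2.46 FPKM with a median of 1.42. The groups overlapped, since control mouse 8 was above 2 of the 3 anti-CD40 mice. The means of 2.18 ± 0.496 (SD, n = 3) and 1.56 ± 0.484 FPKM (SD, n = 6) gave a log2 fold change of 0.49 (SE 0.24, 95% interval -0.04 to 1.01), which did not pass (limma adjusted p = 0.122, exact permutation p = 0.0952). Without control mouse 8 it passed, at 0.62 with a limma adjusted p of 0.0252. The values rested on 87 to 144 reads per anti-CD40 mouse and 50 to 100 per control mouse, as recovered from the steps of the FPKM values.

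Fcgr3, the low-affinity activating receptor of macrophages, neutrophils, and NK cells, had 42.0, 32.7, and 32.0 FPKM in anti-CD40 mice 2, 5, and 9. The control range was 17.1 to 33.4 FPKM with a median of 28.6. Mouse 2 stood above all controls, whereas mice 5 and 9 lay within their range. The log2 fold change was 0.41 (SE 0.21, 95% interval -0.05 to 0.87), from means of 35.6 ± 5.59 (SD, n = 3) and 27.2 ± 6.08 FPKM (SD, n = 6), and did not pass (limma adjusted p = 0.134, exact permutation p = 0.0952). The counting error of this fold change was only 0.037 on the log2 scale, from 713 to 1068 reads per anti-CD40 mouse, so most of its SE was spread between mice. The interval leaves room for no change and for a rise of up to 0.87 on the log2 scale.

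Fcgr4 fell, unlike the chain it needs for its surface expression. FcγRIV is an activating receptor that monocytes, macrophages, and neutrophils carry and lymphocytes do not. Its values were 9.42, 8.04, and 10.0 FPKM in anti-CD40 mice 2, 5, and 9. In the control mice they ranged from 13.7 to 21.2 FPKM with a median of 14.5. No anti-CD40 mouse reached the lowest control mouse. The mean was 9.16 ± 1.01 FPKM (SD, n = 3) against 15.8 ± 2.89 (SD, n = 6), a log2 fold change of -0.77 (SE 0.15, 95% interval -1.11 to -0.42, limma adjusted p = 0.0023, exact permutation p = 0.0238). With the Saa genes left out the log2 fold change was -0.40 and did not pass (limma adjusted p = 0.0596). The reads behind these values were 175 to 218 per anti-CD40 mouse and 262 to 456 per control mouse.

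The inhibitory receptor gene Fcgr2b rose by a smaller amount than Fcer1g. Its values were 16.2, 13.4, and 14.3 FPKM in anti-CD40 mice 2, 5, and 9. The control mice ranged from 6.57 to 13.5 FPKM with a median of 8.89. All 3 anti-CD40 mice were in the upper range, and control mouse 4 lay just above anti-CD40 mouse 5. The means of 14.6 ± 1.45 (SD, n = 3) and 9.63 ± 2.41 FPKM (SD, n = 6) gave a log2 fold change of 0.63 (SE 0.20, 95% interval 0.19 to 1.07, limma adjusted p = 0.0257, exact permutation p = 0.0476). It no longer passed without anti-CD40 mouse 2, at 0.55 with a limma adjusted p of 0.106, or without anti-CD40 mouse 9, at 0.64 with a limma adjusted p of 0.0665.

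Fcgrt, the heavy chain of FcRn, fell, and its controls were the most spread of the 6 genes, with a coefficient of variation of 34.6%. Anti-CD40 mice 2, 5, and 9 had 27.6, 41.7, and 34.8 FPKM. The control range was 38.6 to 103 FPKM with a median of 56.6. Mice 2 and 9 lay below all controls, and mouse 5 lay above control mouse 4. The means were 34.7 ± 7.07 (SD, n = 3) and 63.1 ± 21.8 FPKM (SD, n = 6), a log2 fold change of -0.82 (SE 0.26, 95% interval -1.39 to -0.24, limma adjusted p = 0.026, exact permutation p = 0.0476). Without anti-CD40 mouse 2 it was -0.66 with a limma adjusted p of 0.121, and without anti-CD40 mouse 9 it was -0.83 with a limma adjusted p of 0.0676.

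Acute-phase genes bear on the scale of all these values. When Saa1, Saa2, and Saa3, which encode serum amyloid A, were removed and the libraries brought back to a common total, the median over all genes rose from 0.0056 to 0.35 on the log2 scale, and the share of calls that were higher moved from 52.0% to 77.4%. This rescaling shifts all genes by nearly the same amount, and taking away the median of all genes removes that shift. Values relative to that median therefore return near those of the deposited scale by construction and are no check of the signs. They were 1.85 for Fcer1g, 0.64 for Fcgr2b, 0.49 for Fcgr1, 0.42 for Fcgr3, -0.75 for Fcgr4, and -0.80 for Fcgrt. The calls themselves moved, since Fcgr1 (0.83) and Fcgr3 (0.77) then passed and Fcgr4 (-0.40, limma adjusted p = 0.0596) and Fcgrt (-0.45, limma adjusted p = 0.146) did not.

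Ratios between genes within a mouse do not depend on that scale. Each was taken as log2 of the FPKM values with 0.1 added, and its change between the groups was tested over the 84 splits. The ratio of activating receptors to the inhibitory Fcgr2b was computed for 4 genes. For Fcgr4 the log2 ratios of anti-CD40 mice 2, 5, and 9 were -0.78, -0.73, and -0.51, and the control livers ran from 0.27 to 1.12. The groups did not overlap. The difference was -1.40, or 2.63-fold lower (exact permutation p = 0.0238, adjusted p = 0.0476 over the 4 ratios). Fcer1g to Fcgr2b moved the other way, with 2.48 to 2.61 after anti-CD40 against 0.54 to 1.81 in the control livers, a difference of 1.21 (exact permutation p = 0.0238, adjusted p = 0.0476). For Fcgr1 the difference was -0.14 (exact permutation p = 0.714) and for Fcgr3 -0.22 (exact permutation p = 0.452), and neither passed.

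Against their own signaling chain, all 3 activating receptor genes were lower. The Fcgr3 to Fcer1g ratio was -1.11, -1.32, and -1.40 on the log2 scale in mice 2, 5, and 9, against 0.0044 to 0.43 in the control livers. In the controls it varied little, with an SD of 0.16 on the log2 scale. The difference was -1.43, and those of Fcgr1 and Fcgr4 to Fcer1g were -1.35 and -2.60. All 3 ratios were without overlap (exact permutation p = 0.0238, the same adjusted over the 3), and the Fcgr4 to Fcer1g ratio was 6.07-fold lower in the anti-CD40 mice. These differences share the values of Fcer1g, so they are not independent of each other.

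**Figure D2:**
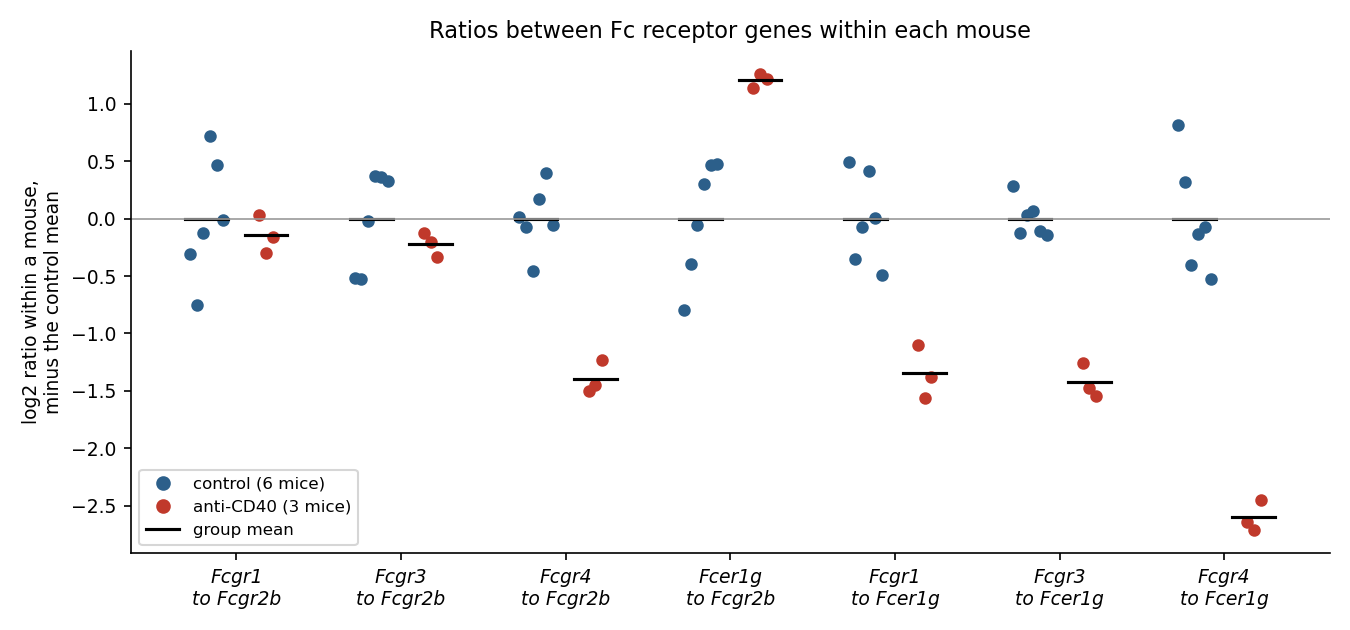
Log2 ratio of 2 Fc receptor genes within each mouse minus the mean of the control mice (vertical axis), for 7 ratios (horizontal axis), with control mice in blue, anti-CD40 mice in red, and group means as black bars. The anti-CD40 mice lie apart from the controls for Fcgr4 and Fcer1g to Fcgr2b, with mean differences of -1.40 and 1.21, and for the 3 ratios to Fcer1g, and lie among the controls for Fcgr1 and Fcgr3 to Fcgr2b.

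Because macrophages carry these receptors, each gene was also set beside the mean of 4 macrophage genes (Adgre1, Csf1r, Cd68, and Lyz2). Relative to this mean, Fcer1g was higher by 1.21 on the log2 scale, and Fcgr4 and Fcgrt were lower, at -1.39 and -1.44 (exact permutation p = 0.0238 and adjusted p = 0.0476 for each, 6 ratios). Fcgr1 differed by -0.14, Fcgr2b by 0.0045, and Fcgr3 by -0.22, none of which passed (exact permutation p of 0.714, 0.905, and 0.262). The 4 genes did not move as 1 group. Lyz2 (lysozyme, log2 fold change 2.89) and Cd68 (1.71) rose, Adgre1 (F4/80, -1.49) fell, and Csf1r (-0.62) did not pass. With Csf1r alone as the reference Fcgr1, Fcgr2b, and Fcgr3 were higher, by 1.11, 1.25, and 1.03 (exact permutation p = 0.0238 each), and Fcgr4 and Fcgrt no longer passed, at -0.15 and -0.20. With Ptprc (CD45, log2 fold change 2.60), carried by all leukocytes, as the reference Fcgr1, Fcgr2b, Fcgr3, and Fcer1g were all lower, by -2.11, -1.97, -2.19, and -0.76. Fcgr4 and Fcgrt were at -3.37 and -3.42 relative to Ptprc, and so were negative with every reference. Fcer1g was higher relative to Csf1r alone, by 2.45. For Fcgr1, Fcgr2b, Fcgr3, and Fcer1g the direction therefore depended on the gene that stood for the cell type.

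Markers of the cells that carry these receptors moved strongly and in opposite directions. Over all genes tested, 23.5% were higher and 21.7% lower. All 8 monocyte markers were higher, and their summed FPKM was 602 to 809 after anti-CD40 against 48.1 to 129 in the control livers. Of 9 neutrophil markers 7 could be tested, and all 7 were higher, with Retnlg (log2 fold change 6.38) and Mmp8 (5.41) among them. The summed FPKM of the 9 was 65.2 to 75.6 after anti-CD40 against 0.308 to 6.54 in the control livers. Mpo and Elane were too low to test. A marker near the floor in the controls could pass the filter only by being high after anti-CD40, which favors calls of higher. With no filter 7 of 9 were higher. Kupffer cell markers, of the liver's resident macrophages, were lower in 7 of 8, at 41.9 to 51.8 against 288 to 462 FPKM, and Clec4f and Vsig4 fell to means of 0.107 and 0.405 from 20.8 and 40.4 FPKM. Their part in the values of the Fc receptor genes was not tested.

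The 7 B cell markers tested were higher, at a summed 32.6 to 48.5 against 1.92 to 8.02 FPKM, as were 8 of 8 NK and T cell markers at 11.3 to 14.3 against 3.47 to 5.53. Of 12 sinusoidal endothelial markers 2 were higher (Lyve1 and Pecam1) and 6 lower, or 5 and 3 with the Saa genes left out, at a summed 126 to 134 against 149 to 191 FPKM. Hepatocyte markers were lower in 9 of 10, or in 6 of 10 with the Saa genes left out, with quantile normalization, with no filter, or without anti-CD40 mouse 2. Of the dendritic cell markers 4 of 5 tested were higher, and of the mast cell and basophil markers 2 of 4 tested, with Fcer1a and Ms4a2 too low to test. Over all genes tested, 23.5% were higher and 21.7% lower. With quantile normalization 0 dendritic cell, 0 mast cell and basophil, and 5 NK and T cell markers were higher. With no filter these counts were 1 of 6, 0 of 6, and 5 of 9, and 7 of 8 B cell markers were higher. With a mouse left out the small counts of markers moved. The NK and T cell count was 5 without anti-CD40 mouse 9 or control mouse 3 or 11, the dendritic cell count was 0 without anti-CD40 mouse 2 or 9, 1 without mouse 5, and 2 without control mouse 7 or 8, and the mast cell and basophil count was 2 without control mouse 4 and 0 or 1 without any other mouse. Only 1 endothelial marker was higher without anti-CD40 mouse 5 or 9. The part of each of these cell types in the result was not tested.

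The adaptors that resemble Fcer1g rose with it. Tyrobp, which encodes DAP12, had 122, 102, and 94.9 FPKM in anti-CD40 mice 2, 5, and 9. The control range was 22.6 to 43.3 FPKM, and control mouse 3 was the lowest there too. Its log2 fold change was 1.64 (SE 0.20, limma adjusted p = 9.0e-05). Cd247, the ζ chain of the T cell receptor, rose by 2.28 and Hcst (DAP10) by 1.05 on the log2 scale. The values of Cd247 rest on a locus that holds 2 genes. All 3 of 3 adaptors were thus higher, beside 23.5% of all genes tested. For each of them the groups did not overlap, beside 42.4% of all genes tested. All 3 remained called whichever mouse was left out.

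The γ chain also serves receptors outside the Fc family. Of 9 such genes 6 could be tested, and 5 were higher and 1 lower, beside 23.5% and 21.7% of all genes tested, with a median log2 fold change of 2.22. The control means of Clec4e (0.0627 FPKM) and Gp6 (0.0587 FPKM) were below the filter of 0.1 FPKM. These genes were thus tested only because of their values after anti-CD40, which favors calls of higher. With no filter 4 of 9 were higher, and without anti-CD40 mouse 2 it was 4 of 5. With quantile normalization or without anti-CD40 mouse 9 there were 4 higher of 6. Clec4e (Mincle), a C-type lectin that senses mycobacterial glycolipids and dead cells, had 16.4, 14.5, and 10.1 FPKM in anti-CD40 mice 2, 5, and 9. No control mouse exceeded 0.147 FPKM. This was a log2 fold change of 6.41 (SE 0.24), the largest of the list, followed by its relatives Clec4d (5.61) and Clec4n (Dectin-2, 2.43). Ncr1 (NKp46, of NK cells) rose by 2.02 and Gp6, the collagen receptor of platelets, by 1.29, at mean values of 0.811 and 0.252 FPKM after anti-CD40. For Gp6 the groups overlapped (exact permutation p = 0.0714). Control mouse 4, at 0.256 FPKM, was above anti-CD40 mice 5 and 9, and 4 control mice were at the floor of 0.01 FPKM. Lilra5 fell, with 0.829, 0.428, and 0.325 FPKM in anti-CD40 mice 2, 5, and 9 against 2.72 to 5.42 in the control mice, a log2 fold change of -2.71 (SE 0.28). Fcer1g and its partners therefore did not all move the same way, since Lilra5 fell as Fcgr4 did. Oscar, Pira2, and Fcer1a were too low to test.

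Receptors for other immunoglobulins followed their own patterns. Of 13 genes 6 could be tested, and 4 were higher and 1 lower, beside 23.5% and 21.7% of all genes tested. Fcer2a (CD23), the low-affinity IgE receptor of B cells, had 9.68, 5.24, and 8.88 FPKM in anti-CD40 mice 2, 5, and 9 and no more than 0.529 FPKM in any control liver, a log2 fold change of 4.87 (SE 0.41). The B cell genes Fcrl1 (2.88) and Fcrla (2.35) and the IgM receptor gene Fcmr (1.85) also rose. Pigr, which carries IgA across epithelia, fell from 136 to 219 FPKM in the control mice to 49.4 to 63.4, a log2 fold change of -1.67 (SE 0.16, limma adjusted p = 2.3e-05). Trim21, an Fc receptor of the cytosol, did not pass at 0.39 (limma adjusted p = 0.361). Fcamr and Fcrlb were at the floor of the table, 0.01 FPKM, in all 9 mice.

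**Figure D3:**
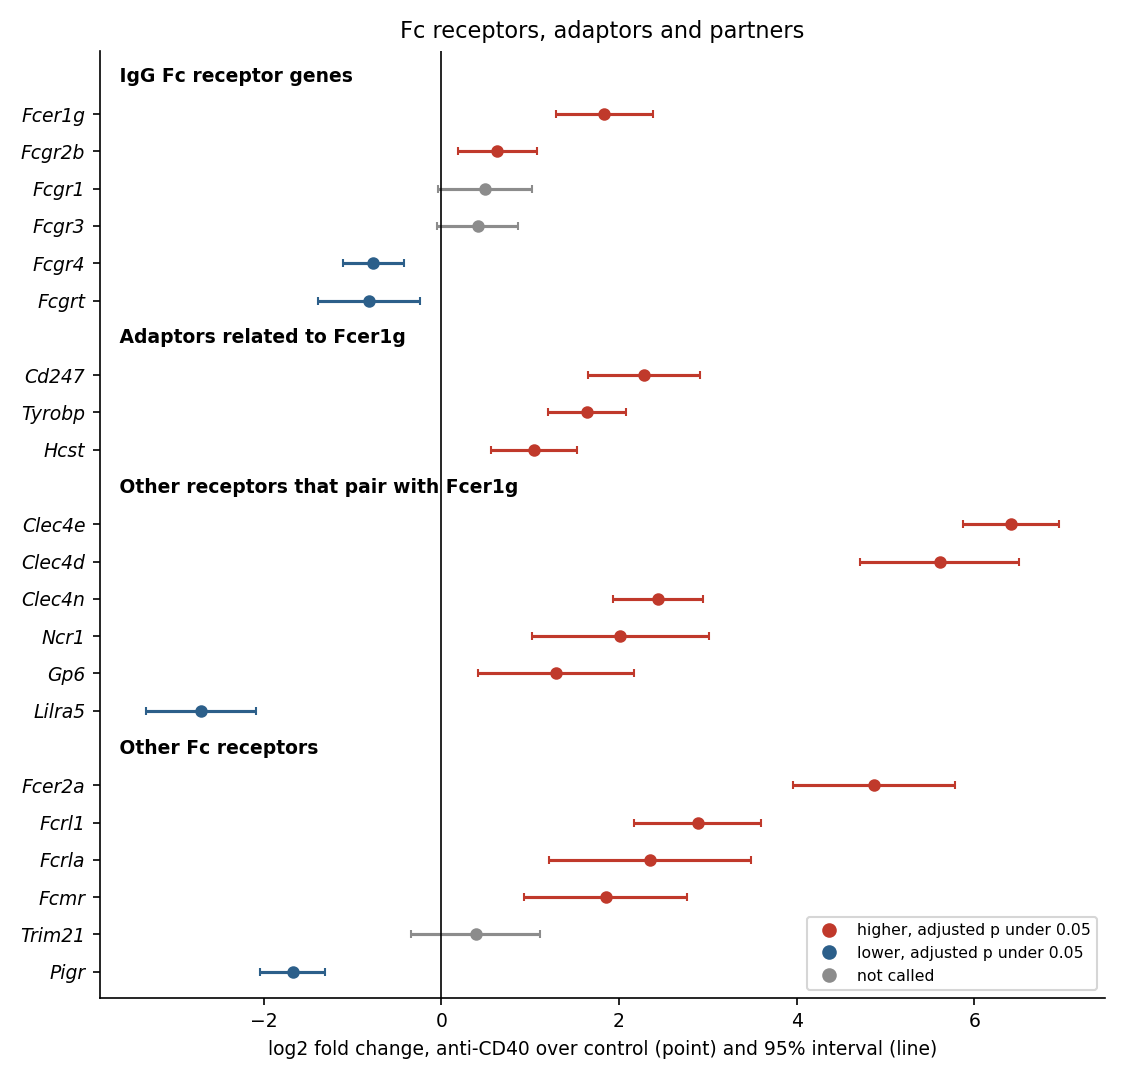
Log2 fold change of anti-CD40 over control (horizontal axis, points) with its 95% interval (lines) for the IgG Fc receptor genes, the adaptors, the other partners of Fcer1g, and the other Fc receptors that were tested, in red for higher, blue for lower, and gray for not called at an adjusted p of 0.05. The IgG receptor genes lie between -0.82 and 1.83, whereas Clec4e reaches 6.41 and Lilra5 -2.71.

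Genes that carry the activating signal onward were mostly higher. Of 26 listed genes 24 could be tested, and 19 were higher by limma, or 79.2% beside 23.5% of all genes tested, with a median log2 fold change of 1.58. None was lower, nor was any lower at an unadjusted p under 0.05. Among the Src family kinases that phosphorylate the ITAM, Fgr (2.96), Src (0.89), and Lyn (0.59) rose, though the groups overlapped for Src (exact permutation p = 0.0714). Syk, which binds the phosphorylated ITAM, had 4.96, 4.01, and 4.67 FPKM in anti-CD40 mice 2, 5, and 9, against 0.513 to 0.874 among the control livers, a log2 fold change of 2.40 (SE 0.18, limma adjusted p = 3.9e-06). The groups were far apart for this gene. The membrane adaptor Lat2 rose the most, with 36.8 to 39.8 FPKM against 1.46 to 4.50 and a log2 fold change of 3.95.

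Downstream of Syk, Plcg2 (2.38), Vav1 (1.95), Lcp2 (SLP-76, 1.76), and Btk (1.34) were higher, as were the leukocyte forms of phosphoinositide 3-kinase subunits Pik3r5 (2.57) and Pik3cd (1.88). Rac2 (2.62), the Rac GTPase of blood cells, rose, whereas the widely expressed Rac1 was level at -0.01 (95% interval of the log2 fold change -0.23 to 0.21). The broadly expressed Pik3r1 (-0.19), Plcg1 (0.60), and Wasf2 (0.56) did not pass either, nor did Tec (-0.47). Cdc42 and Src, also widely expressed, were called higher. Whether breadth of expression bears on these changes was not tested. Vav2 and Card9 were too low to test. With each mouse left out in turn, 17 to 19 of these genes were higher, and 1 was lower without control mouse 12.

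Genes of the inhibitory side were mostly higher as well. Of 9 genes tested 7 were higher by limma, or 77.8% beside 23.5% of all genes tested, with a median log2 fold change of 1.41, and none was lower, also at an unadjusted p under 0.05. Inpp5d (SHIP-1), the main effector of FcγRIIb, had 3.27, 2.96, and 4.04 FPKM in anti-CD40 mice 2, 5, and 9, against 0.713 to 1.40 among the control livers. Its log2 fold change was 1.79 (SE 0.20, limma adjusted p = 6.2e-05), with no overlap. The phosphatase gene Ptpn6 (SHP-1, 1.56), the adaptors Dok2 (1.80), Dok1 (1.51), and Dok3 (1.37), and the ubiquitin ligase Cbl (1.41) rose, and Inppl1 (SHIP-2) rose by 0.39. Ptpn11 (0.12) and Rasa1 (0.11) did not pass. Leaving out each mouse in turn gave 6 or 7 higher. The shares called higher on the activating and inhibitory sides, 79.2% and 77.8%, were not tested against each other.

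**Figure D4:**
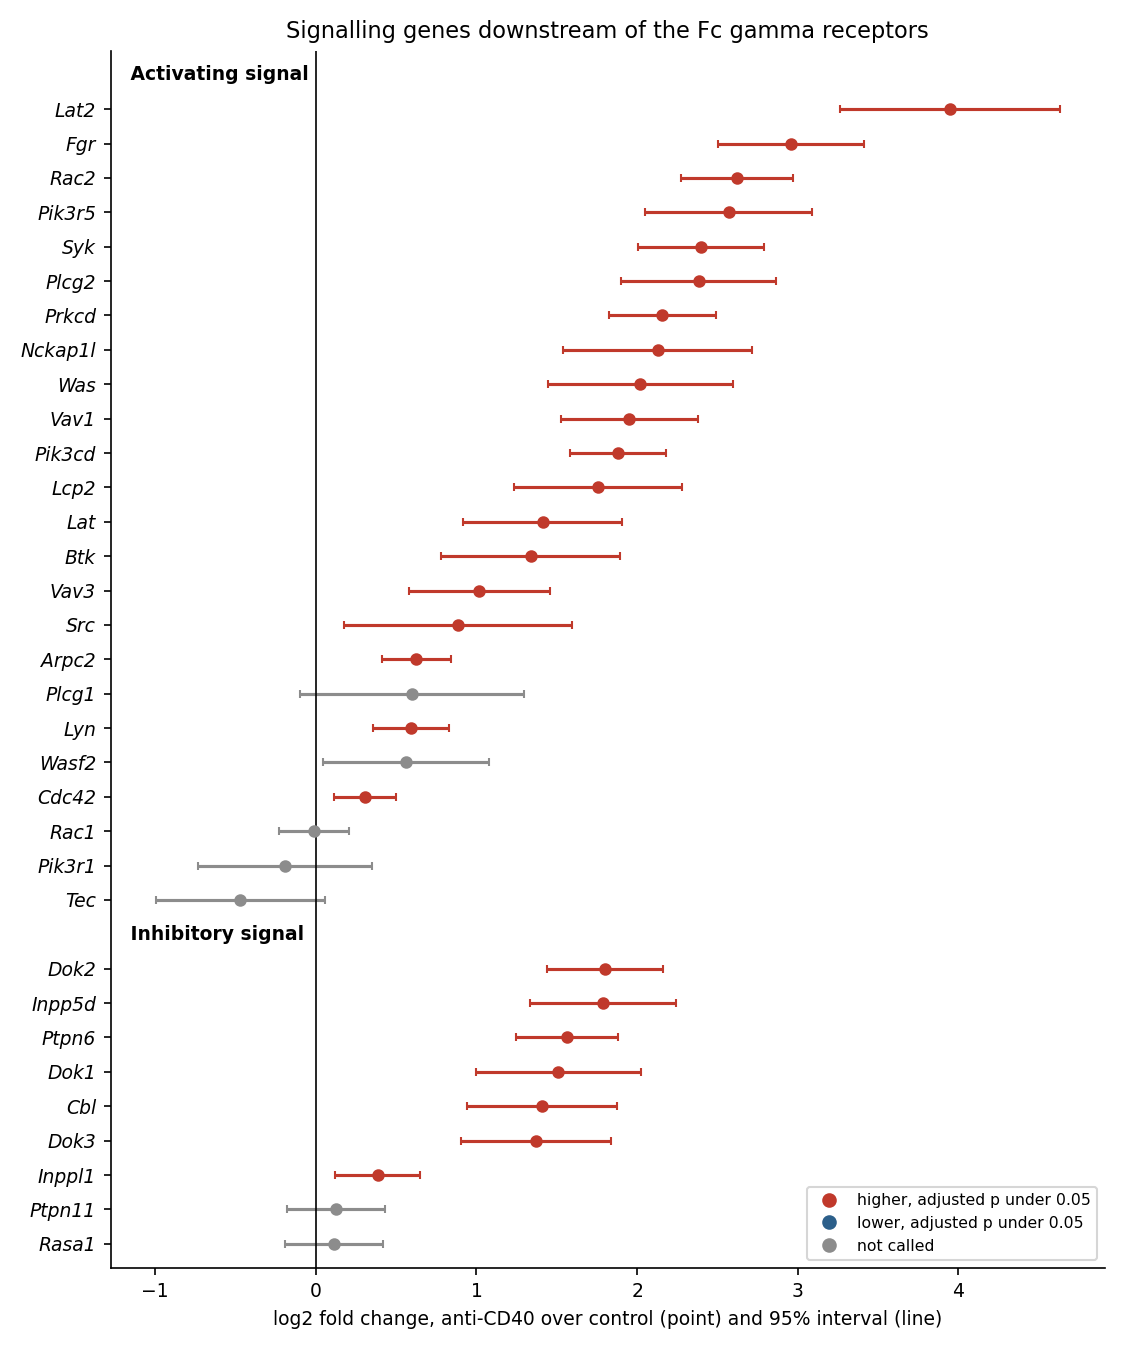
Log2 fold change of anti-CD40 over control (horizontal axis, points) with its 95% interval (lines) for the tested genes of the activating and the inhibitory signal below the Fcγ receptors, in red for higher and gray for not called at an adjusted p of 0.05. The genes called higher run from 0.31 for Cdc42 to 3.95 for Lat2, and no gene was called lower.

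The partners of FcRn did not follow Fcgrt as a group. B2m, which encodes the β2-microglobulin that Fcgrt needs to leave the endoplasmic reticulum, had 2274, 2236, and 2404 FPKM in anti-CD40 mice 2, 5, and 9. The control range was 1311 to 1739. B2m thus rose while Fcgrt fell, with a log2 fold change of 0.57 (SE 0.12, limma adjusted p = 0.0031) and no overlap. Alb, the cargo that FcRn rescues beside IgG, fell from 4063 to 6626 FPKM in the control mice to 774 to 1075, a log2 fold change of -2.43 (SE 0.18). Among the other genes of the list, all of endosomal recycling, only Rab11fip2 (-0.64, limma adjusted p = 0.0054) was called, and Rab11a (0.17), Rab11b (-0.07), Rab5a (0.12), and Myo5b (0.05) did not pass. In all, 1 of the 12 genes of this list was higher and 2 were lower, with a median of -0.08. These shares, 8.33% and 16.7%, were below the 23.5% and 21.7% of all genes tested. With the Saa genes left out 3 were higher and 1 was lower, and without control mouse 4 the number lower was 4. The values of B2m rest on a locus of the table that holds 3 genes.

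Of the soluble ligands, 4 of 12 listed genes were in the table. The pentraxins, acute-phase proteins that can bind Fcγ receptors, split. Apcs (serum amyloid P) rose from 131 to 224 FPKM in the control mice to 961 to 1363, a log2 fold change of 2.78 (SE 0.21), and Ptx3 rose by 3.14 at a mean of 1.44 FPKM. Crp (C-reactive protein) had 415 to 435 FPKM after anti-CD40 and 319 to 436 FPKM in the control livers and did not pass, at 0.17 (limma adjusted p = 0.276). Jchain, of plasma cells, was at 0.10 (95% interval -0.33 to 0.53). The immunoglobulin heavy chain genes and Igkc were not analysed here.

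The receptor genes of chromosome 1 did not share a direction, and more of their tested neighbors were lower than higher. Within 200000 bases of the chromosome 1 receptor genes (chr1:170760559-171434349) the table held 29 genes, of which 26 were tested, 5 higher and 13 lower, with a median log2 fold change of -0.58. Fcgr4 lies 42.9 kb from Fcgr2b, which rose, and 21.4 kb from Fcgr3. Near Fcer1g, Apoa2 (-2.18), an apolipoprotein of hepatocytes, and Nr1i3 (CAR, -2.38) fell. Apart from the receptor genes, 3 of 22 tested neighbors were higher (Adamts4 2.75, Arhgap30 2.47, and Fcrla 2.35) and 12 were lower, beside 23.5% and 21.7% of all genes tested. Adamts4 had a control mean of 0.0223 FPKM, below the filter, so it was tested only because of its values after anti-CD40. Apoa2, Nr1i3, and Tomm40l share a single locus in the table, so their values are not independent.

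**Figure D5:**
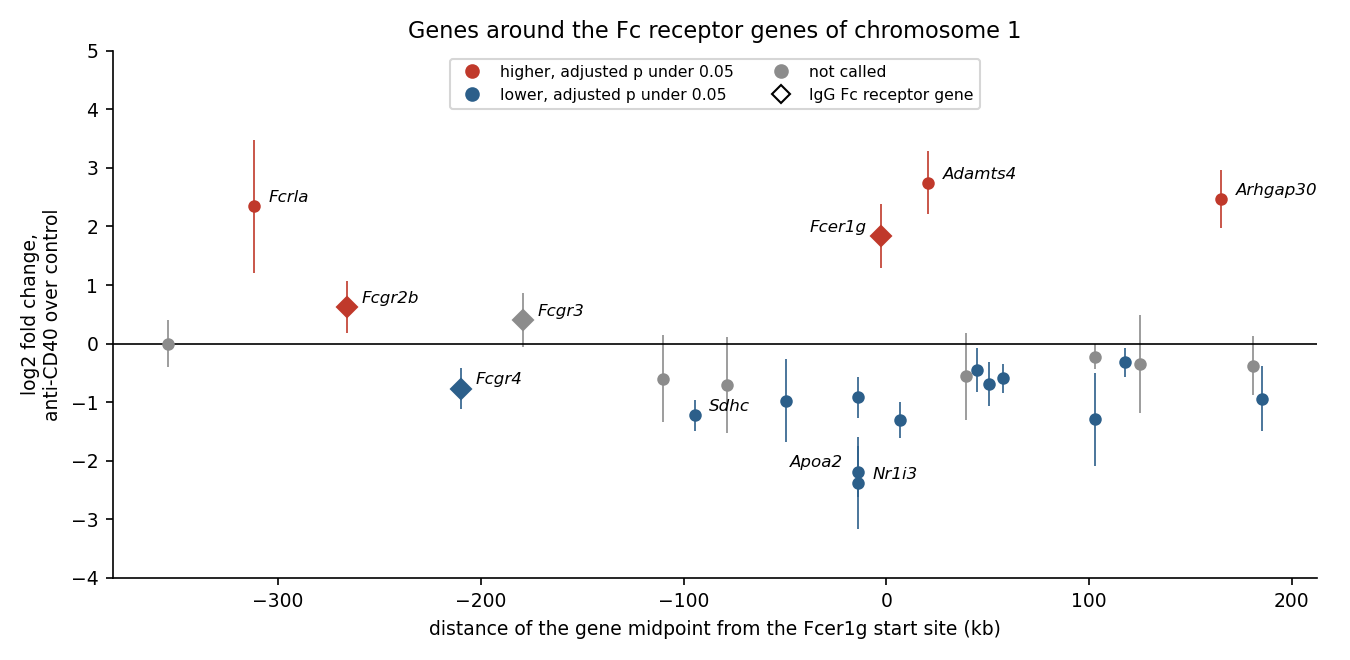
Log2 fold change of anti-CD40 over control (vertical axis, with 95% intervals) of the genes around the chromosome 1 Fc receptor genes against the distance of the gene midpoint from the Fcer1g start site in kilobases (horizontal axis), with Fc receptor genes as diamonds and red, blue, and gray for higher, lower, and not called. Fcer1g at 1.83 lies among lower genes such as Apoa2 at -2.18 and Nr1i3 at -2.38, and Fcgr2b, Fcgr4, and Fcgr3 lie side by side at 0.63, -0.77, and 0.41.

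The genes with the most similar profiles differed from member to member. Profiles were compared as the root mean square distance between log2 values centered on the control mean, over the 9 mice and 10149 genes with a mean of at least 1 FPKM. For Fcer1g the closest was Spi1, which encodes PU.1, a transcription factor of the myeloid lineage, at a distance of 0.14, followed by Emilin2 (0.19) and Arhgap9 (0.20). Spi1 had a mean of 11.8 ± 0.897 FPKM (SD, n = 3) after anti-CD40 and 3.18 ± 0.897 (SD, n = 6) in the control mice. For Fcgr4 the closest were Lancl1 (0.12), Gcsh (0.12), of the glycine cleavage system, and Fech (0.13), the last enzyme of heme synthesis, all of which fell. Fcgrt was closest to Jmjd8 (0.13), Rnasek, and Klhdc3, and Fcgr2b to Fundc2 (0.11), Grb10, and Zfp472. Fcgr3 was closest to Pold4 (0.13), with Nenf (0.15) also near, and Fcgr1 to Ptgr1 (0.17), Large, and Vps39. These distances describe 9 mice in 2 groups and carry no test.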

How the data were processed

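The authors prepared QuantSeq 3′ libraries from total liver RNA of 9 mice, sequenced them on a NextSeq 500, aligned the reads to mm10 with STAR, and made FPKM values with Cufflinks and CuffDiff. The deposited table holds FPKM for 24341 genes with a floor of 0.01, 1 column per mouse. The annotation, the strand setting of the counting, and the filter behind the table are not given in the sources used here. The 15 genes with a failed estimate were left out (24326 remained). The 13807 genes whose mean over the mice was at least 0.1 FPKM were tested on the log2 scale, after adding 0.1, with limma 3.58.1 in R 4.3.3 (lmFit, eBayes with trend, 2-sided, treatment as the only factor), with Benjamini-Hochberg adjustment over all genes tested at 0.05. Single genes and within-mouse ratios were tested with the exact 2-sided permutation test over the 84 possible divisions of the mice, whose smallest p is 0.0238. Nothing in the labels names litters or cages, so the p-values measure the spread between these 9 mice. Depth limits the low genes only, and no total was available for an interval. For 4 of the genes the smallest whole numbers of reads that gave the FPKM values of all 9 mice within 0.05 were recovered, searching up to 1500, and the true reads could be a multiple of these. A count test and CuffDiff itself were not run. Named genes were the 6 receptor genes, the extremes and the genes of described role in each list, the 3 nearest profiles of each receptor gene, and the genes of the chromosome 1 window. The genes and lists were chosen with earlier results of these data known, so their counts are no independent support. Alternatives were a pseudocount of 1 or of 0.01, testing unfiltered genes or those of at least 1 FPKM on average, quantile normalization, median of ratios scaling, leaving out the Saa genes, eBayes without trend or made robust, leaving out each mouse, and other references for the ratios. The counts of the lists under these alternatives were added after seeing the data. Some genes are not reported here: 1 was left out of the activating signal list and 1 of the 5 planned macrophage reference genes was left out of the ratios, a change made after seeing the data. The scripts were tested on simulated data. Python 3.11.15 with numpy 2.4.6, pandas 2.3.3, and scipy 1.17.1 served for all other computations, with matplotlib 3.10.9 for figures.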

Additional observations from a re-analysis of the deposited data

Results flagged for a closer look

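Of 19 groups of control values examined, 1 held a mouse that stood apart from the others by Dixon's criterion for 6 samples, which compares the gap to the nearest mouse with the whole range, where chance gives about 0.95. It was Fcer1g in control mouse 3. On the log2 scale its gap was 0.686 of the range, with 12.7 FPKM against 23.3 to 30.9 in the other control mice. The same liver had the lowest control values of Tyrobp (22.6 FPKM), Fcgr3 (17.1 FPKM), and Fcgr1 (1.10 FPKM), but not of Fcgr2b or Fcgr4. Without it Fcer1g was still called, with a log2 fold change of 1.65.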

How the results depend on the processing

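Fcer1g was called under each of the 18 alternatives (log2 fold change 1.65 to 2.20), Fcgr4 under 17, Fcgr2b under 15, Fcgrt under 13, and Fcgr1 and Fcgr3 under 2 each, and none of the 6 changed sign. With no filter on low values Fcgr2b (0.63) and Fcgrt (-0.82) were no longer called. Quantile normalization added Fcgr3 (0.62) and lost Fcgrt (-0.56). Leaving out the Saa genes added Fcgr1 (0.83) and Fcgr3 (0.77) and lost Fcgr4 (-0.40) and Fcgrt (-0.45), and it moved the calls over all genes from 6230 to 7282. With each mouse left out, the calls over all genes ran from 4814 to 6830, and the log2 fold changes from 0.32 to 0.63 for Fcgr1, 0.53 to 0.73 for Fcgr2b, 0.28 to 0.48 for Fcgr3, -0.83 to -0.68 for Fcgr4, 1.65 to 1.91 for Fcer1g, and -0.96 to -0.66 for Fcgrt. Relative to Csf1r alone Fcgr2b (1.25) passed, Fcgr1 (1.11) and Fcgr3 (1.03) reversed and passed, and Fcgr4 (-0.15) and Fcgrt (-0.20) did not pass. Relative to Ptprc, Fcgr2b (-1.97) and Fcer1g (-0.76) reversed, and Fcgr1 (-2.11) and Fcgr3 (-2.19) passed. The cause of these changes was not tested, apart from the fewer samples and the other genes tested that these alternatives use by construction. Ratios without an anti-CD40 mouse cannot reach a p below 0.0714 and were compared by value. No paired analysis was possible because the 2 groups share no mouse numbers. Among the 4 genes with recovered reads, counting limits Fcgr1 most, with a counting error of 0.11 in its log2 fold change beside an SE of 0.24.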
